A study of Mus musculus with 2 samples.

Results

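The Meg3 and Rtl1-antisense hairpins are 10 microRNA genes of the imprinted Dlk1-Dio3 domain on mouse chromosome 12, chosen by name from the 2202 miRNA genes of the count tables. They are Mir770 and Mir673, assigned to the long non-coding RNA Meg3, and 8 hairpins assigned to the transcript antisense to Rtl1, namely Mir337, Mir540, Mir665, Mir431, Mir433, Mir127, Mir434 and Mir136. Their levels were measured by microRNA-seq of fragments under 30 nt in total RNA of the left cerebral cortex. The tissue came from 5xFAD/CAST female adult mice of 8 to 10 months, supplied by The Jackson Laboratory. 5xFAD is a transgenic mouse model of amyloid disease, with transgenes driven by the neuronal Thy1 promoter, and forms amyloid plaques in the brain. CAST is a wild-derived strain, and the labels used here do not give the direction of the cross. There is 1 group of 2 libraries, replicate 2 and replicate 1, which share a donor entry and differ in tissue sample. They are numbered as biological replicates 2 and 1. The labels do not state separate animals, so a p-value here measures how the 2 libraries differ, for technical or other reasons.

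In the Dlk1-Dio3 domain the paternal chromosome expresses the protein-coding genes Dlk1, Rtl1 and Dio3. The maternal chromosome expresses non-coding RNAs, among them Meg3, Rian, Mirg and the antisense transcript of Rtl1, which carry clusters of miRNAs that are abundant in brain and placenta. Rtl1 is a gene derived from a retrotransposon that is needed for placental vessels. Those miRNAs of its antisense transcript that lie opposite Rtl1 are fully complementary to Rtl1 mRNA, and in mouse such miRNAs direct its cleavage in trans. A miRNA otherwise recognises its targets mainly by its seed, bases 2 to 8 from the 5′ end.

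The mature arms printed here, from RefSeq on GRCm38.p6 with the seed in capitals, belong to the 3 hairpins with the highest counts (Mir127, Mir433 and Mir770), to the one that differed by more than 2-fold between the libraries (Mir665) and to the one with the lowest counts (Mir136).
miR-127-5p: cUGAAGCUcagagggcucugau
miR-127-3p: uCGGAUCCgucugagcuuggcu
miR-433-5p: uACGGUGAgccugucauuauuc
miR-433-3p: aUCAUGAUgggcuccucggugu
miR-770-5p: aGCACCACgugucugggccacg
miR-770-3p: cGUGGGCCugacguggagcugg
miR-665-5p: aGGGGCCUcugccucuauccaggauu
miR-665-3p: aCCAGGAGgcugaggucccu
miR-136-5p: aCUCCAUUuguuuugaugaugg
miR-136-3p: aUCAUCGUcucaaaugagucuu

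All 10 hairpins matched RefSeq entries, with 20 mature arms of 20 to 26 bases. The 20 arms had 20 distinct seeds, so no seed grouped the members. A mature arm of another gene shared the seed of 2 arms only, miR-673-5p with miR-6985-3p and miR-540-3p with miR-6915-5p. Among all 1738 mature arms of the RefSeq table, 28.4% shared a seed with another arm. None of the 10 hairpins shared a stretch of 18 bases with any of the 1005 RefSeq hairpins at another locus, on either strand. Reads mapping to several places stayed outside the counts, and similarity to sequence other than hairpins was not examined.

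By GENCODE M21 on mm10, all members lie on the plus strand within 31697 bases, and the names of their hosts hold for some of them only. Mir770 (ENSMUSG00000076451.1; chromosome 12, 109563692 to 109563785) lies in an exon of 1 of the 4 Meg3 transcripts that span it and in an intron of the others. Mir673 (ENSMUSG00000076316.1; 109571990 to 109572080) starts 264 bases past the annotated end of Meg3, and 261 bases past it in RefSeq. Mir337 (ENSMUSG00000065526.4; 109585789 to 109585885), Mir540 (ENSMUSG00000072900.2; 109586080 to 109586146) and Mir665 (ENSMUSG00000076313.1; 109586314 to 109586407) lie together in 619 bases. They are outside Rtl1 as M21 draws it, 2786 to 3308 bases beyond its 3′ end. RefSeq draws Rtl1 longer, from 109564900 to 109604418, and that span holds these hairpins and Mir673.

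The other 5 hairpins lie opposite the coding sequence of Rtl1, within an exon. They are Mir431 (ENSMUSG00000070080.1; 109590447 to 109590537), Mir433 (ENSMUSG00000070072.1; 109591715 to 109591838), Mir127 (ENSMUSG00000070076.2; 109592846 to 109592915), Mir434 (ENSMUSG00000070133.1; 109594506 to 109594599) and Mir136 (ENSMUSG00000104858.1; 109595327 to 109595388). Both arms of each were found as exact reverse complements, once each, in the coding part of the M21 Rtl1 transcript, which makes 10 of the 20 arms. None of the arms of Mir770, Mir673, Mir337, Mir540 and Mir665 had such a match in that transcript. The sites are printed as they read in Rtl1, 5′ to 3′, with the bases that pair with the seed in capitals, for 1 arm each, as examples, of the 2 most abundant hairpins of this stretch and of Mir136, the hairpin nearest the start codon.
Rtl1 opposite miR-127-3p: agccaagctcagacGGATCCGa
Rtl1 opposite miR-433-3p: acaccgaggagcccATCATGAt
Rtl1 opposite miR-136-5p: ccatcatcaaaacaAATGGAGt
In the transcript, whose coding part runs from base 148 to 5379, these sites span bases 2642 to 2663 for miR-127-3p, 3749 to 3770 for miR-433-3p and 199 to 220 for miR-136-5p.

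Replicate 2 had 15950006 reads in its table and replicate 1 had 12978140. Reads on the same strand as a miRNA gene numbered 5162369 in replicate 2 and 4226300 in replicate 1. CPM is a gene's count scaled to 1000000 gene-strand counts in its library. A miRNA read covers a whole mature RNA, and levels of different hairpins are compared as CPM of reads, with the per-length order given where it differs. Differences between sequences in ligation and amplification were not measured. The libraries stand apart in the Mir302 cluster of pluripotent cells, with 1 count in replicate 2 and 1786 in replicate 1. Of the neuron markers listed, 6 of 9 reached 10 CPM in both libraries. The rest were Mir124a-1, Mir124a-2 and Mir124a-3, loci of the same miRNA, whose reads may map to several places and so stay uncounted. This was not tested. In the embryonic stem list, 0 of 8 genes did so, and Mir290a, Mir292 and Mir295 were at 0 in both. In the muscle list 1 of 4 did so, with Mir133a-1 and Mir1a-1 at 0.

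Together the 10 hairpins took 6.64% ± 1.06 of the counts (SD, n = 2), 7.38% in replicate 2 and 5.89% in replicate 1. The 8 hairpins assigned to the antisense of Rtl1 took 5.52% ± 0.766 and the Meg3 pair 1.11% ± 0.290 (SD, n = 2 each). In bulk tissue, fewer cells of a type and less RNA per cell cannot be told apart. Within the 8, the 5 opposite the Rtl1 coding sequence took 5.24% ± 0.749 and the 3 beyond its end 0.286% ± 0.0171. All 10 reached 10 CPM in both libraries, which 309 of the 2202 genes did. Of the 10, 3 were among the 20 most abundant genes by counted reads and 7 among the 100 most abundant.

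Mir127 led the members. Deletion of this gene in mice alters the labyrinth of the placenta. Replicate 2 held 210296 of its reads (40736 CPM) and replicate 1 held 135173 (31984 CPM). That put it at rank 7 in replicate 2 and rank 8 in replicate 1 of all miRNA genes by counted reads. It held 55.2% of the counts of the 10 members in replicate 2 and 54.3% in replicate 1. Its mean was 36360 CPM ± 6189 (SD, n = 2), and the fold to the lowest member, Mir136, was 318.

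Mir433, whose human counterpart has been reported to target FGF20, had 14390 CPM in replicate 2 and 12447 in replicate 1. Mir770 had 12591 CPM in replicate 2 and 8570 in replicate 1. The means were 13418 ± 1374 CPM for Mir433 and 10580 ± 2843 for Mir770 (SD, n = 2 each), a gap smaller than the sum of their SDs, so the order of this pair was not set apart from the spread. Per kilobase of hairpin the order turned, with 112556 CPM per kb for Mir770 and 108213 for Mir433, whose annotated hairpin of 124 bases is the longest of the 10.

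The middle of the range held Mir337, Mir434, Mir431, Mir540 and Mir673. Mir337 had 1972 CPM in replicate 2 and 1440 in replicate 1, and Mir434 had 1472 and 1602 CPM in the same order, so the libraries ranked these hairpins differently. Mir431, which in mouse sensory neurons promotes axon regrowth, had 943 CPM in replicate 2 and 911 in replicate 1, the ratio closest to 1 of the 10. Mir540 had 845 CPM in replicate 2 and 959 in replicate 1, and its order against Mir431 also differed between libraries. Mir673 had 601 CPM in replicate 2 and 524 in replicate 1, below these 4 in both. Per kilobase of hairpin, Mir540 stood above Mir431.

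Mir665 and Mir136 closed the order. Mir665 had 161 CPM in replicate 2 and 338 in replicate 1, from 832 and 1428 counts. Mir136 had 109 CPM in replicate 2 and 119 in replicate 1, from 564 and 505 counts, the lowest of the 10 in both libraries. Of the 9 pairs of neighbours in the order of means, 6 were further apart than the sum of their SDs with the same order in both libraries. The 3 that were not are Mir433 with Mir770, Mir337 with Mir434 and Mir431 with Mir540. SDs of 2 values are imprecise.

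**Figure D1:**
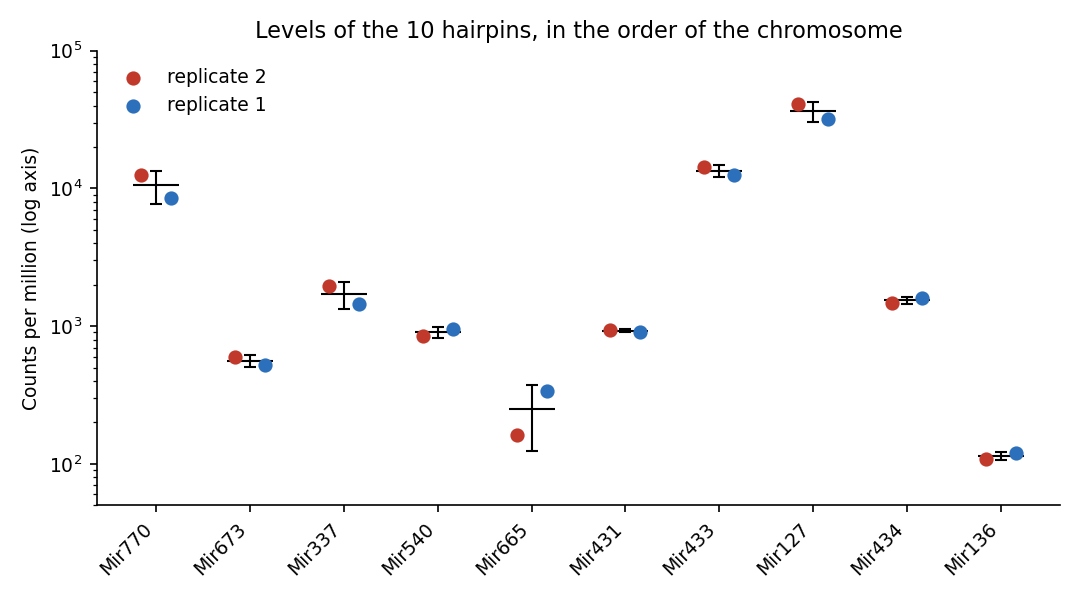
CPM of each hairpin on a log axis, in the order of the chromosome. Red points are replicate 2 and blue points replicate 1, and the black line and bar are the mean and SD (n = 2). Mir770, Mir433 and Mir127 lie at 8570 CPM or above in both libraries, and Mir665 has the widest gap between its points on the log axis.

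The levels did not run in the order of the chromosome. Mir127, the highest, lay 2 hairpins away from Mir136, the lowest, within the 4942 bases from Mir431 to Mir136. Other miRNA genes between the members on the same strand, named after their values were seen, were lower than all of them. Mir493 had 33.9 CPM in replicate 2 and 36.2 in replicate 1, Mir3070b 26.2 and 19.4, and Mir3070a 13.6 and 10.2. Mir432 had no count in either library, which allows up to 0.581 CPM in replicate 2 and 0.710 in replicate 1 by counting error alone.

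**Figure D2:**
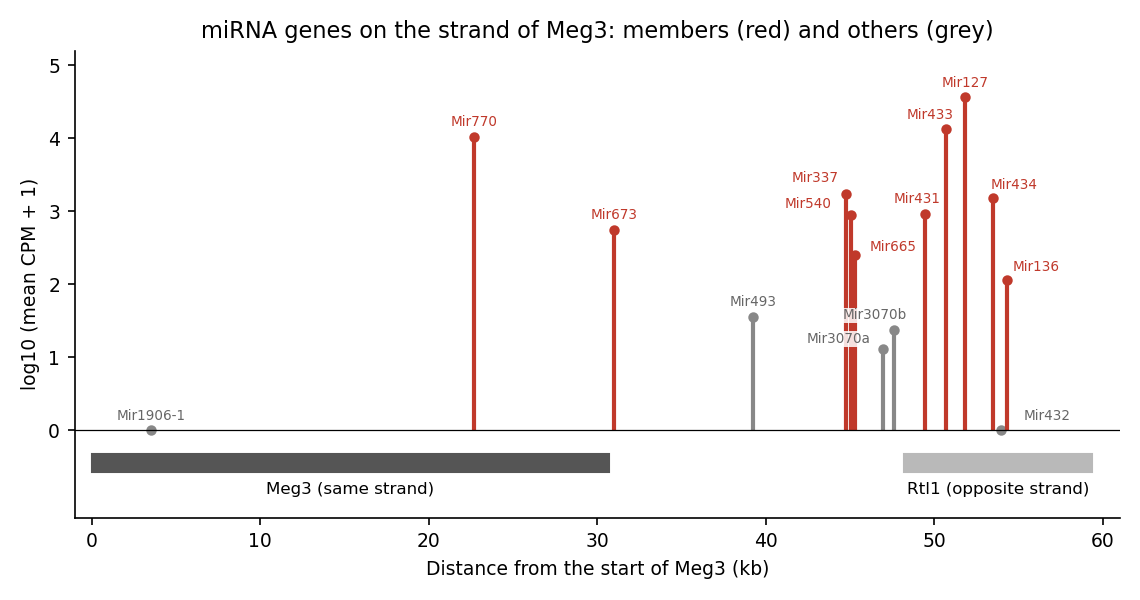
Map of the miRNA genes on the strand of Meg3, with the distance from the start of Meg3 in kb on the x axis and log10 of the mean CPM + 1 over the 2 libraries on the y axis. Red stems are the 10 members and grey stems other miRNA genes, and the bars under the axis are Meg3 and Rtl1 as M21 draws them. Mir127, the tallest stem at 36360 CPM, stands near members under Rtl1 that are as low as Mir136 at 114 CPM, and Mir432 between Mir434 and Mir136 is at 0.

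A miRNA gene of the other strand overlaps Mir337 and Mir136, and no other member. Mir3544, opposite Mir337, had 2 counts in replicate 2 and 9 in replicate 1 on its own strand, against 10180 and 6084 for Mir337. Mir3071, opposite Mir136, had none in either library, against 564 and 505 for Mir136. Signal of these pairs was thus nearly all on the strand of Meg3. In the column of the tables that ignores strand, Mir337 and Mir136 had 0 counts in both libraries and the other 8 members the same counts as on their own strand.

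The hairpins differed in composition, from 40.3% G and C in Mir136 to 70.2% in Mir770. Mir434 carries the 13-base stretch UGGUUUGAACCAU 2 times. A repeat at least this long was found in 1.29% of the 1005 RefSeq hairpins. Mir431 repeats GUCUUGCAGG and Mir540 repeats GGCCAAGGGU, and repeats of at least that length were found in 4.08% of hairpins. The tables sum both arms of a hairpin, so which arm the counts came from cannot be told.

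For replicate 2 against replicate 1, a two-sided exact binomial test was run on the 546 genes whose counts summed to 10 or more over both libraries. Library sizes were scaled by TMM and p-values adjusted by Benjamini-Hochberg over these genes. The test sets one library against the other, not conditions, and allows for counting error only. At an adjusted p of 0.05, 58.8% of all genes tested were called, 24.5% higher and 34.2% lower in replicate 2. Of the 10 members, 5 were called higher in replicate 2 and 3 lower, while Mir431 and Mir136 were not called. All members averaged above 100 CPM. Of the 204 genes at or above that level, 87.7% were called, 39.7% higher and 48% lower in replicate 2, so the members' share is near that of genes of like depth. EdgeR's exact test at a fixed biological coefficient of variation of 0.1 allows for some spread between samples. It called 28.8% of all genes, 35.3% of those at 100 CPM or more, and 2 of the 10 members, Mir770 and Mir665.

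Mir665 was the member that passed 2-fold. It was lower in replicate 2, with a log2 ratio of -1.10 (exact 95% interval -1.22 to -0.97) and an adjusted p of 2.46e-70 by the exact binomial test, or 5.49e-06 by edgeR's exact test at the fixed variation. Its interval lies on both sides of the 2-fold line, so counting error alone allows a difference below 2-fold. A 2-fold difference in either direction was seen in 25.3% of all genes tested (10.4% higher and 14.8% lower in replicate 2). Of the genes at 100 CPM or more it was seen in 12.7% (2.94% higher and 9.8% lower). Its close neighbours were not past 2-fold. Mir540, the next hairpin upstream, had a log2 ratio of -0.21 and Mir337 one of 0.42, in the opposite direction.

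Shares within a cluster do not depend on how the libraries are scaled. Of the counts of Mir337, Mir540 and Mir665 together, Mir665 held 5.41% in replicate 2 (Wilson 95% interval 5.07 to 5.78) and 12.3% in replicate 1 (11.8 to 13.0). Mir337 held 66.2% in replicate 2 (65.5 to 67.0) and 52.6% in replicate 1 (51.7 to 53.5). These intervals do not overlap, and they cover counting error only, since reads without molecular identifiers are not independent molecules. Of the 5 hairpins opposite the Rtl1 coding sequence, Mir127 held 70.7% in replicate 2 and 68.0% in replicate 1, and Mir433 25.0% and 26.4% in the same order. Mir434 held 2.55% in replicate 2 and 3.40% in replicate 1, Mir431 1.64% and 1.94%, and Mir136 0.190% and 0.254%. The make-up of that stretch therefore moved by less than 3 percentage points for each of its hairpins. Relative to shares as small as those of Mir434 and Mir136, such shifts are not small. For all 5 hairpins the Wilson 95% intervals of the libraries did not overlap here either. Mir770 held 95.4% of the Meg3 pair in replicate 2 (95.3 to 95.6) and 94.2% in replicate 1 (94.0 to 94.5), again without overlap.

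The most abundant members were higher in replicate 2 by small folds. Mir770 was 1.44-fold higher, with a log2 ratio of 0.52 (exact interval 0.51 to 0.54), Mir127 1.25-fold higher with 0.32 (0.31 to 0.33) and Mir433 1.13-fold higher with 0.18 (0.16 to 0.19). For Mir770 the adjusted p of edgeR's exact test at the fixed variation was 0.0394, against 0.238 for Mir127 and 0.577 for Mir433. Mir337 and Mir673 were also called higher in replicate 2, at 1.34-fold and 1.12-fold. Mir540 and Mir434, at log2 ratios of -0.21 and -0.15, were called lower. Mir431 had 0.02 (adjusted p = 0.662, exact binomial test) and Mir136 -0.16 (adjusted p = 0.115), with intervals of -0.04 to 0.08 and -0.34 to 0.02.

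**Figure D3:**
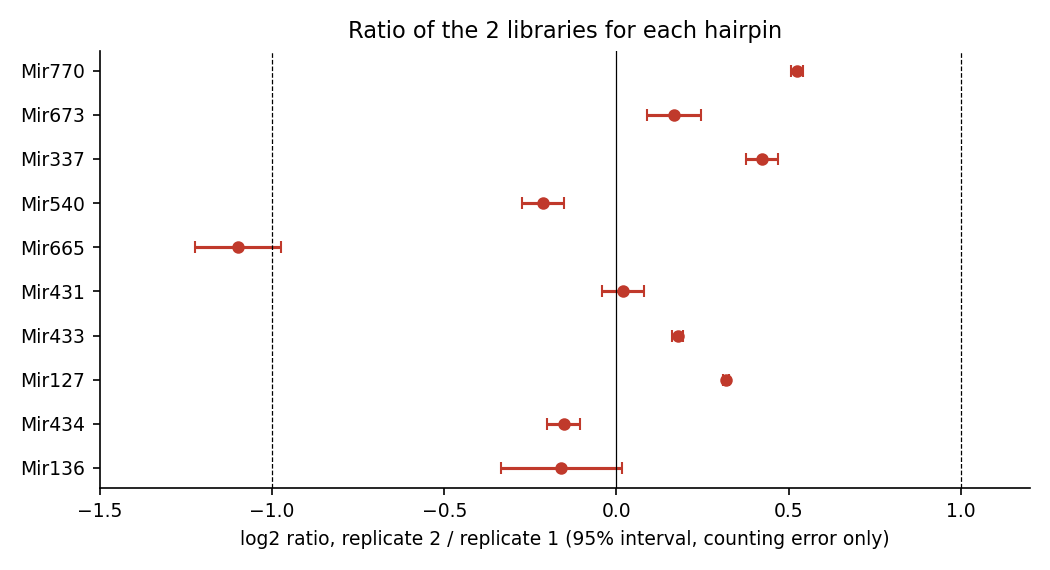
Log2 ratio of replicate 2 over replicate 1 for each hairpin, TMM-scaled, with its exact 95% interval for counting error on the x axis and the hairpins in the order of the chromosome down the page. Dashed lines mark 2-fold in either direction. Mir665, at -1.10, lies apart from the other 9, which range from -0.21 to 0.52.

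The median log2 ratio of the members was 0.09, against -0.07 for all 546 genes tested and -0.06 for those at 100 CPM or more. The cell type marker lists also differed between the libraries, and their part in these ratios was not tested. The neuron list summed to 43607 CPM in replicate 2 and 69180 in replicate 1, with 6 of 8 tested markers called lower and 1 higher. Much of that gap lay in Mir132 (21189 CPM in replicate 2 and 40577 in replicate 1) and Mir128-1 (3687 and 9000). Mir137 and Mir383 were called lower at log2 ratios of only -0.09 and -0.06, and Mir138-1 was called higher at 0.15. The astrocyte list summed to 29930 CPM in replicate 2 and 36210 in replicate 1, and the oligodendrocyte list to 5329 and 7091. Endothelium and mural markers summed to 19327 CPM in replicate 2 and 13268 in replicate 1, and microglia and immune markers to 2261 and 4954. Blood markers summed to 887 and 72.4 in the same order, and choroid plexus markers to 957 and 575. Calls in these lists are to be read beside the 58.8% of all genes tested, and 87.7% of those at 100 CPM or more, called in either direction. Not every marker followed its list's sum. Of 5 microglia and immune markers tested, 1 was called higher and 3 lower in replicate 2. Of 3 endothelium and mural markers tested, 2 were called higher and 1 lower, and the 3 blood markers split in the same way. All 3 choroid plexus markers were called higher. The sums for muscle were 52.3 and 39.04 CPM, for liver 86.6 and 48.5, and for embryonic stem cells 0.194 and 423.

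The neighbouring Mirg region, a list of 40 other miRNA genes of the Dlk1-Dio3 domain, took 4.58% of the counts in replicate 2 and 4.49% in replicate 1. By counted reads, the 10 members took more than the 40 genes downstream, in both libraries. Reads mapping to several places, 39.4% in replicate 2 and 40.4% in replicate 1, are in neither share. Stretches that Mirg region hairpins share with other loci were not examined, so the comparison may not hold for all their reads. At least 10 CPM in both libraries was reached by 32 of the 40, while 5 were at 0 throughout. Its most abundant genes were Mir382 (10393 CPM in replicate 2 and 8544 in replicate 1), Mir541 (7288 and 6004) and Mir411 (6876 and 5441). Of its 35 tested genes, 11 were called higher and 16 lower in replicate 2, and 6 passed 2-fold, all lower in replicate 2. Over all genes tested, 24.5% were called higher and 34.2% lower, and 10.4% passed 2-fold higher and 14.8% lower. Its median log2 ratio was -0.16. Among imprinted miRNAs outside the domain, Mir335, in an intron of Mest, was the most abundant at 6320 CPM in replicate 2 and 4803 in replicate 1. In that list 4 of 5 genes reached 10 CPM, 2 of the 4 tested were called higher in replicate 2 and 1 lower, and the median log2 ratio was 0.11.

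**Figure D4:**
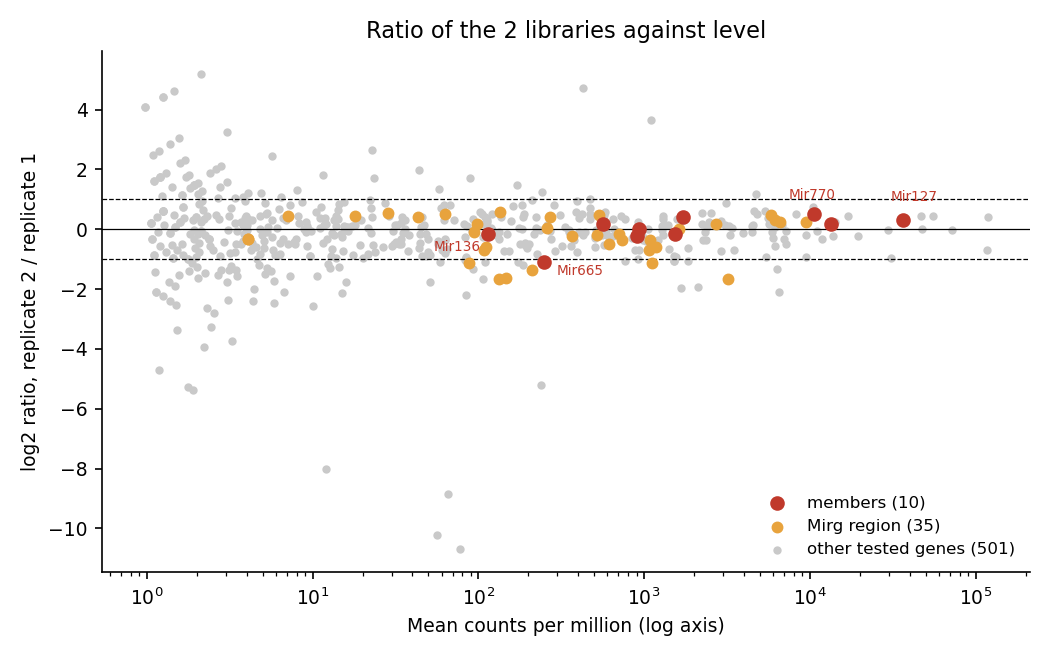
Log2 ratio of replicate 2 over replicate 1 against the mean CPM on a log axis for the 546 tested genes. Red points are the 10 members, orange points the 35 tested genes of the Mirg region and grey points the rest, and dashed lines mark 2-fold. The members lie at 114 CPM and above, and Mir665 alone among them is past a dashed line.

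The genes closest to a member in their pair of levels were found by the distance between log2(CPM + 1) values over the 2 libraries. Mir99a lay nearest to Mir433, at a distance of 0.06 with 14332 CPM in replicate 2 and 12986 in replicate 1. Mir126a lay nearest to Mir770 (0.16; 13122 and 7756 CPM), Mir7080 to Mir136 (0.15; 122 and 121 CPM) and Mirlet7e to Mir127 (0.46; 29866 and 29549 CPM). With 2 libraries, likeness of this kind is a description of level.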

How the data were processed

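MicroRNA-seq counts of 2 libraries of 1 group were analysed. Each deposited table holds raw read counts per miRNA gene, with GENCODE M21 and mm10 named in the record that comes with it, in columns for either strand, the strand of the gene and the opposite strand, as read from the column totals. Aligner, counter and trimming: not given in the sources used here. In each table the first 4 rows name no gene and hold 67.6% of reads in replicate 2 and 67.4% in replicate 1; neither library sizes nor tests use them. Mapping of reads with CAST alleles was not analysed here.

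The gene-strand column was scaled to CPM. Ratios used TMM factors from edgeR 4.0.16 (R 4.3.3) over genes with a summed count of 10 or more, with 0.5 counts added per library. The exact binomial test was two-sided and was tested on simulated data. Those simulated counts had no spread beyond counting error, so they cannot show how the test behaves where libraries differ by more. Sequences came from RefSeq tables and the M21 Rtl1 transcript. Named non-members were, by rule, the gene nearest in level to each of Mir127, Mir433, Mir770 and Mir136, the 3 most abundant Mirg region genes, the most abundant imprinted gene outside the domain, and genes opposite a member. Outside the rule, Mir493, Mir3070a, Mir3070b, Mir432 and the Mir302 cluster were chosen after their values were seen. Markers named came from the cell type lists. The members and lists were chosen with earlier results of these data known. Alternatives were DESeq2 1.42.0 size factors, total counts, the unstranded column, other count filters and pseudocount, all reads as denominator, a fixed variation of 0.1, and each library left out.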

Additional observations from a re-analysis of the deposited data

Results flagged for a closer look

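Opposite-strand counts are outside the main measure. Those of Mir337 numbered 9 in replicate 1, above the 3 counts that a count of 0 allows, and 2 in replicate 2. They equal the counts of Mir3544, which overlaps Mir337 on the other strand. No other member had an opposite-strand count.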

How the results depend on the processing

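Against all reads in the tables, the shares were 2.15% for the 10 hairpins, 0.362% for the Meg3 pair and 1.79% for the other 8, smaller by construction. At a fixed variation of 0.1, 1 member was called higher and 1 lower in replicate 2, in place of 5 and 3. DESeq2 size factors called Mir431 higher (log2 ratio 0.09, adjusted p = 0.00847, exact binomial test), and the cause was not tested. In the unstranded column Mir337 and Mir136 had 0 counts and could not be tested; the other 8 kept their direction and call there. Mir665 stayed past 2-fold under DESeq2 size factors, total counts and the unstranded column. No member changed direction under any alternative run for the ratios. Ratios cannot be recomputed with a library left out, and a mean of 2 values moves by less than their SD by construction. No paired analysis was possible because there is 1 group. Lengths of hairpins as a scale were added after seeing the data. The lowest count of a member in a library was 505, for Mir136, whose ratio has the widest interval of the 10. The spread between animals cannot be estimated from these libraries.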
